A study of Mus musculus with 12 samples.

Results

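The genes described here are the 7 that encode the subunits of the NMDA receptor: Grin1, Grin2a, Grin2b, Grin2c, Grin2d, Grin3a and Grin3b. They were chosen by name from the 51912 genes of the deposited table, with earlier results of these data known, and all 7 were found. The cells were primary cortical neurons from C57BL/6J mouse embryos, dissociated at E17.5, plated on dishes and kept in a neuron maintenance medium, with no sorting step in the labels. The 12 libraries fall into 4 groups of 3. The groups were DMSO (the solvent control) for 16 h, 1 µg/mL erinacine S for 16 h, DMSO for 48 h and 1 µg/mL erinacine S for 48 h. Erinacine S is a natural product of the edible fungus Hericium erinaceus, and it was added on the day of plating. The study therefore allowed 2 questions for the receptor: whether its transcripts differed with erinacine S, and how they differed between the early and the later culture. Replicates are labelled as independent, without a statement of whether that means litters, dishes or days. The p-values below rest on the spread between such replicates, which could be technical.

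The NMDA receptor is a glutamate-gated cation channel that opens only when glutamate and a co-agonist, glycine or D-serine, are bound and depolarisation has expelled magnesium from the pore. GluN1, the product of Grin1, is obligatory and binds the co-agonist. GluN2 subunits (Grin2a to Grin2d) bind glutamate and set how long the channel stays open, and GluN3 subunits (Grin3a, Grin3b) bind glycine and lower calcium flow and magnesium block. In rodent cortex Grin2b and Grin2d are expressed before birth, Grin2a comes on mainly after birth, Grin2c is best known from the cerebellum, and Grin3a peaks in early postnatal life.

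The stretch of coding sequence that carries the channel's selectivity position shows how the classes differ, and so it is printed for 6 members. Each line gives 33 bases of the coding strand 5′ to 3′, read from the GRCm38 genome and the GENCODE M21 gene models. The capitals mark the codon at the so-called N site, where GluN1 and GluN2 have asparagine and GluN3 has glycine.
Grin1: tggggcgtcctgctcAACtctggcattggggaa
Grin2a: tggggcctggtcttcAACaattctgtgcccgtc
Grin2c: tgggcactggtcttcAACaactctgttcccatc
Grin2d: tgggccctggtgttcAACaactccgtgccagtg
Grin3a: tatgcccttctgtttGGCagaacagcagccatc
Grin3b: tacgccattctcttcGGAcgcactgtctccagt

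These stretches lie at chr2:25297371-25297403 (minus strand, exon 14) for Grin1 and chr16:9653546-9653578 (minus, exon 8) for Grin2a. The others lie at chr11:115253848-115253880 (minus, exon 9) for Grin2c, chr7:45854378-45854410 (minus, exon 8) for Grin2d, chr4:49770569-49770601 (minus, exon 3) for Grin3a and chr10:79974531-79974563 (plus, exon 3) for Grin3b. The codon was AAC in Grin1, Grin2a, Grin2c and Grin2d, GGC in Grin3a and GGA in Grin3b. The table holds 1 value per gene, so splice forms of Grin1 were not separated.

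Expression is given as TPM, an abundance per transcript length that sums to the same total for each sample. Read depth cannot be recovered from such values and is unknown, so the only error available is the spread between libraries. Replicates correlated at 0.980 to 0.995 across genes. Neuron markers dominated: the summed TPM of 7 pan-neuronal markers was 3620 to 4481 in the 16 h libraries and 5449 to 5879 in the 48 h libraries, and that of 8 excitatory cortical markers 1481 to 2130 over all 12. Markers of other cells were present at lower levels, with 10 genes in each list: 72.99 to 169.7 TPM for astrocytes, 66.85 to 250.2 for the oligodendrocyte lineage, 1.325 to 40.88 for microglia, 268.5 to 866.0 for radial glia and dividing cells and 1.268 to 7.431 for endothelial, mural and meningeal cells. Levels were uneven within these lists. Mog was at 0 in 7 libraries, Tmem119 in 5 and Cldn5 in 3. From the same lists, Olig1 ranged from 20.52 to 134.7 TPM, Ctss from 0.3798 to 14.69 and Dcn from 0.04514 to 3.199. The library labelled erinacine S 48 h replicate 1 stood apart: its 8 inhibitory neuron markers summed to 1814 TPM against 791.5 to 1272 in the other 48 h libraries, and its radial glia and dividing-cell markers to 268.5 against 800.3 to 866.0. The subunits' differences that involve the 48 h erinacine S group are therefore given with and without it. In bulk RNA, fewer cells of a type and less RNA per cell cannot be told apart.

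Grin1 was the most abundant member and Grin2b the second. Averaged over the 12 libraries, the levels were 65.0 TPM for Grin1, 22.5 for Grin2b, 6.77 for Grin3a, 4.35 for Grin2d, 2.59 for Grin2a, 0.776 for Grin2c and 0.204 for Grin3b. Not every neighbour in that order was separated by its spread. At 16 h Grin3a (3.46 to 4.70 TPM) lay within the range of Grin2d (2.35 to 5.44), and Grin2a (0.622 to 1.68) overlapped Grin2c (0.561 to 0.864). At 48 h the range of Grin2d (2.97 to 9.64 TPM) overlapped those of Grin3a (6.99 to 16.5) and Grin2a (3.70 to 4.48). Within every single 48 h library, however, Grin3a lay above Grin2d. The 7 members together amounted to 69.0 ± 6.44 TPM in DMSO at 16 h, 72.1 ± 9.30 in erinacine S at 16 h, 129.3 ± 11.8 in DMSO at 48 h and 138.7 ± 37.1 in erinacine S at 48 h (SD, n = 3 each), and the last was 117.8 without replicate 1.

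**Figure D1:**
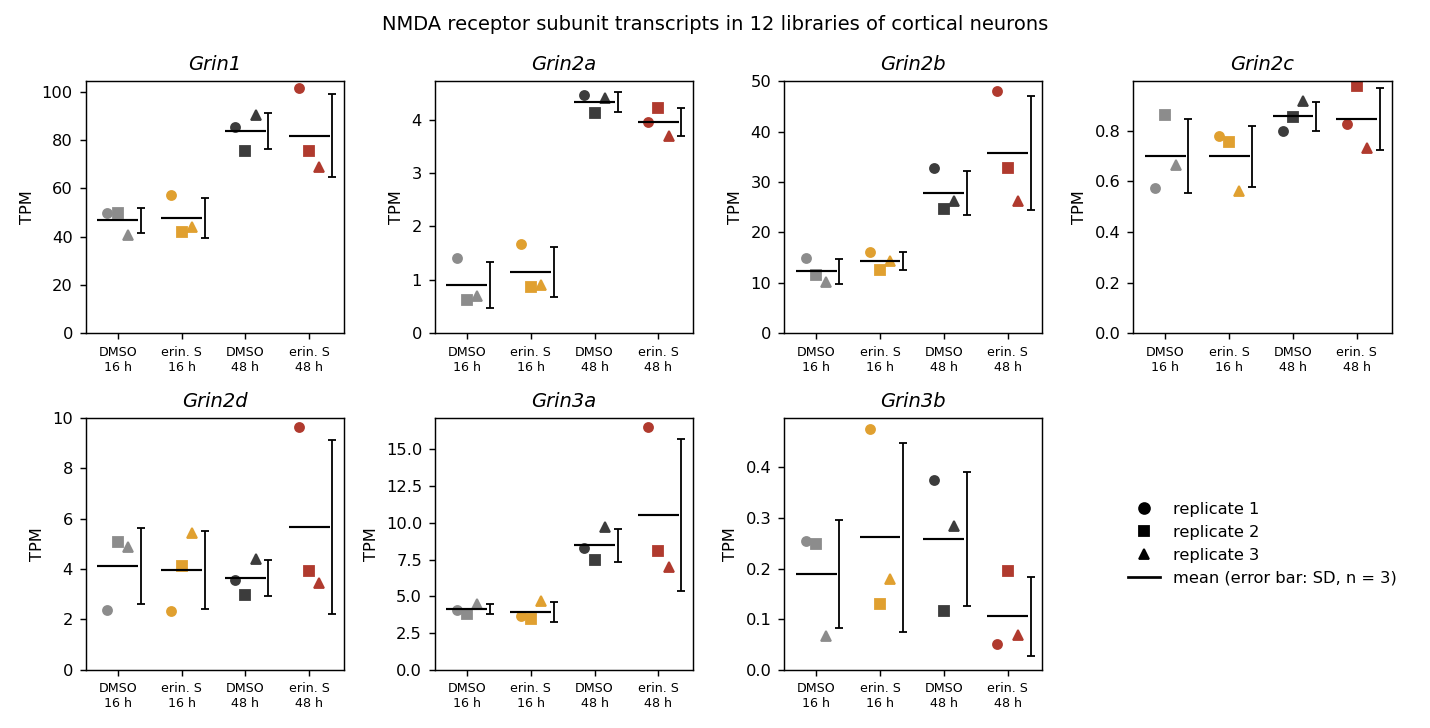
TPM of each of the 7 subunit genes (vertical axes, linear, each panel with its own scale) in the 4 groups; points are libraries with the shape giving the replicate number, lines are group means, bars are SD, and "erin. S" is erinacine S. The 48 h libraries lie above all 16 h libraries for Grin1, Grin2a, Grin2b and Grin3a, and replicate 1 of erinacine S at 48 h is the highest library for Grin1, Grin2b, Grin2d and Grin3a.

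Between 16 h and 48 h the transcripts of the obligatory subunit, of both main GluN2 subunits and of GluN3A rose, in DMSO and in erinacine S alike. In both arms 4 of the 5 members tested were higher at 48 h in limma's moderated test (adjusted p under 0.05) and none was lower. Grin2c and Grin3b fell below the minimum mean of 1 TPM and were not tested. Over all 15623 genes tested, 16.1 percent were called higher in DMSO and 15.1 percent in erinacine S, and 16.6 percent and 15.5 percent were called lower. For the same 4 members in each arm no 48 h library overlapped a 16 h library, as was so, in the same direction, for 24.1 percent of all genes in DMSO and 21.2 percent in erinacine S. Changes given below as log2 come from log2(TPM + 1), where the added 1 makes changes of low genes look smaller, and ± after a log2 value is a standard error.

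Grin1 (ENSMUSG00000026959, chr2:25291181-25319187, minus strand) measured 49.8, 49.7 and 40.7 TPM in the 3 DMSO libraries at 16 h and 85.7, 75.6 and 90.4 in those at 48 h. With erinacine S it measured 57.1, 42.1 and 43.9 TPM at 16 h and 101.5, 75.5 and 68.8 at 48 h. Every 48 h library lay above every 16 h library, the lowest of them being erinacine S replicate 3. The rise was 0.83 ± 0.15 in DMSO (limma, adjusted p = 0.00165) and 0.76 ± 0.15 in erinacine S (adjusted p = 0.00326; 0.60 and 0.00908 without replicate 1 at 48 h). In TPM the group means changed 1.80-fold and 1.72-fold.

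Grin2a encodes GluN2A, the fast-closing subunit of mature synapses. The gene (ENSMUSG00000059003, chr16:9567898-9995560, minus strand) measured 1.40, 0.622 and 0.688 TPM in DMSO at 16 h and 4.48, 4.13 and 4.42 at 48 h. The erinacine S libraries held 1.68, 0.863 and 0.894 TPM at 16 h and 3.96, 4.23 and 3.70 at 48 h. Replicate 1 was the highest library in both 16 h groups, and the times did not overlap. Grin2a rose by 1.51 ± 0.18 in DMSO (limma, adjusted p = 0.000134) and by 1.23 ± 0.18 in erinacine S (adjusted p = 0.000546; 1.23 and 0.00165 without replicate 1 at 48 h). The size depends on the value added before the log: with 0.1 added it was 2.23 in DMSO and 1.76 in erinacine S, and with 5 added 0.66 and 0.55, all past the threshold. With 5 added it was smaller than the change of Grin2b, at 0.93 and 1.04. Group means of TPM changed 4.80-fold and 3.46-fold.

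Grin2b encodes GluN2B, the slow subunit that predominates in the immature cortex. The gene (ENSMUSG00000030209, chr6:135713233-136173511, minus strand) measured 15.0, 11.5 and 10.2 TPM in DMSO at 16 h and 32.8, 24.6 and 26.1 at 48 h. With erinacine S the values were 16.2, 12.5 and 14.3 TPM at 16 h and 48.1, 32.8 and 26.2 at 48 h. Replicate 1 was the highest of its group at both times in both arms, and no 16 h library reached a 48 h one. The rise was 1.13 ± 0.20 in DMSO (limma, adjusted p = 0.00155) and 1.22 ± 0.20 in erinacine S (adjusted p = 0.00117; 0.99 and 0.00228 without replicate 1 at 48 h), and TPM means changed 2.28-fold and 2.49-fold.

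Grin3a encodes GluN3A, which yields receptors with low calcium permeability. The gene (ENSMUSG00000039579, chr4:49661611-49845744, minus strand) measured 4.10, 3.81 and 4.48 TPM in DMSO at 16 h and 8.26, 7.45 and 9.71 at 48 h. In erinacine S it measured 3.65, 3.46 and 4.70 TPM at 16 h and 16.5, 8.10 and 6.99 at 48 h. The 48 h libraries again lay above all 16 h libraries, with the erinacine S library that stands apart far above the rest. Grin3a rose by 0.88 ± 0.24 in DMSO (limma, adjusted p = 0.0147) and by 1.14 ± 0.24 in erinacine S (adjusted p = 0.00414; 0.80 and 0.00253 without replicate 1 at 48 h). In DMSO the rise was 0.56 with 5 added before the log (limma, adjusted p = 0.0262), and in erinacine S 0.75. The DMSO call was lost without DMSO 48 h replicate 3 (0.79, limma adjusted p = 0.057).

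Grin2d encodes GluN2D, a very slow subunit found in the embryonic brain and, later, in interneurons. It was the 1 tested member that did not pass in either arm. The gene (ENSMUSG00000002771, chr7:45831883-45878378, minus strand) measured 2.38, 5.08 and 4.88 TPM in DMSO at 16 h and 3.58, 2.97 and 4.39 at 48 h. The erinacine S values were 2.35, 4.11 and 5.44 TPM at 16 h and 9.64, 3.91 and 3.44 at 48 h. The times overlapped in both arms, and replicate 1 was the lowest library of each 16 h group and the highest of the 48 h erinacine S group. The difference was -0.10 ± 0.34 in DMSO (limma, adjusted p = 0.846, 95% interval -0.85 to 0.65) and 0.36 ± 0.34 in erinacine S (adjusted p = 0.457, interval -0.39 to 1.11). The second was -0.04 without erinacine S 48 h replicate 1. Part of Grin2d lies opposite Kdelr1, an abundant gene on the other strand at 68.76 to 101.4 TPM. The kit keeps strand, but the strand setting of the authors' quantification is not given in the sources used here, so reads of the pair may not be fully separated.

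Grin2c (ENSMUSG00000020734, chr11:115249169-115267243, minus strand) ranged from 0.561 to 0.977 TPM over the 12 libraries, with group means between 0.699 and 0.858. Grin3b (ENSMUSG00000035745, chr10:79970715-79977190, plus strand) ranged from 0.0518 to 0.476 TPM. Both were low in every group, and their groups overlapped in both treatment comparisons. Grin3b lies opposite Tmem259, at 132.3 to 166.2 TPM, and carries the same limit on strand as Grin2d.

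Other measures also differed between the times. Of 7 pan-neuronal markers 5 rose in DMSO and 6 in erinacine S (4 without replicate 1 at 48 h; limma), with medians of 0.35 in both, beside the 16.1 and 15.1 percent of all genes called higher. Of 9 tested oligodendrocyte-lineage markers 8 rose in DMSO and 4 in erinacine S (6 without that replicate). Their summed level was 66.85 to 118.2 TPM at 16 h. At 48 h it was 77.14 TPM in that replicate and 186.9 to 250.2 in the other libraries. Of 8 tested astrocyte markers 1 rose in DMSO and 0 in erinacine S (6 and 4 in the fit without that replicate). In that fit 19.1 percent of all genes were called higher and 19.2 percent lower in DMSO. In erinacine S the shares were 12.1 and 13.6 percent. The DMSO libraries were the same in both fits, and only the shared estimate of the spread and the set of genes tested differed. The summed level of the astrocyte markers was 81.19 to 110.1 TPM at 16 h. At 48 h it was 72.99 TPM in that replicate and 144.3 to 169.7 in the other libraries. In erinacine S 4 of 5 tested microglial markers fell (5 of 6 without that replicate), as did 4 of 10 markers of radial glia and dividing cells (2 without it, when 3 rose), beside 15.5 percent of all genes called lower. In DMSO 1 of 5 microglial markers fell, and 1 of 10 markers of radial glia and dividing cells fell and 1 rose, beside 16.6 percent of all genes called lower. The summed level of 8 excitatory cortical markers was lower at 48 h, at 1481 to 1711 TPM against 1908 to 2130. Single markers went both ways: 1 was called higher and 3 lower in DMSO, and 1 higher and 2 lower in erinacine S. The part of these shifts in the rise of the subunits was not tested.

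**Figure D2:**
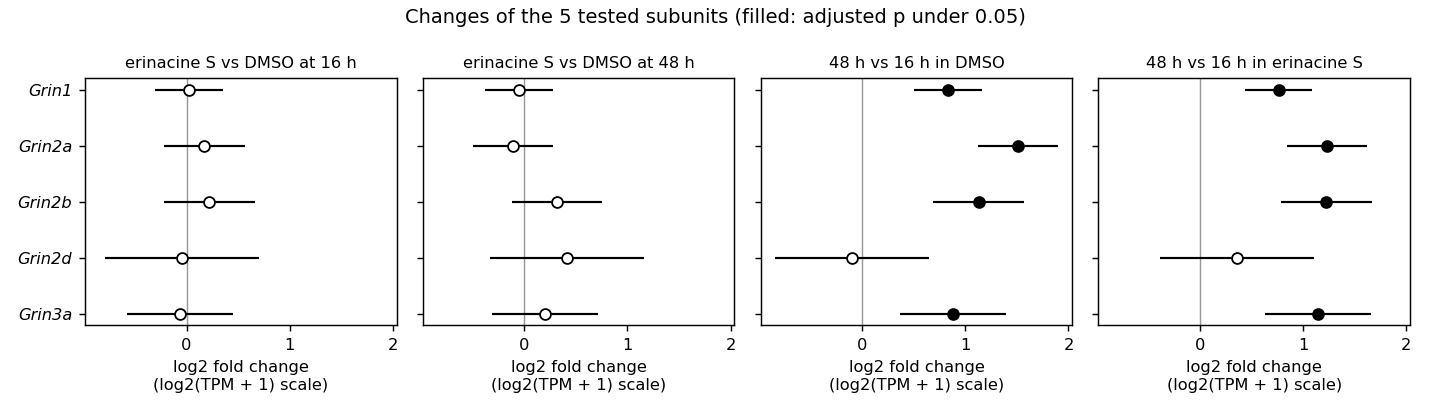
Log2 fold change of the 5 tested subunit genes (points) with 95% intervals (lines) from limma on log2(TPM + 1), in 4 comparisons; filled points have an adjusted p under 0.05. The filled points are Grin1, Grin2a, Grin2b and Grin3a in the 2 comparisons of 48 h with 16 h, and all intervals for erinacine S against DMSO include 0.

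None of the 5 tested subunit genes passed the test of erinacine S against DMSO at either time. At 16 h 0 of 5 members were called, against a background of 0 percent of all genes, and none had an unadjusted p under 0.05, against 1.29 percent of all genes. The differences were 0.02 ± 0.15 for Grin1 (95% interval -0.31 to 0.35), 0.17 ± 0.18 for Grin2a (-0.21 to 0.56) and 0.22 ± 0.20 for Grin2b (-0.22 to 0.66). For Grin2d and Grin3a they were -0.04 ± 0.34 (-0.79 to 0.70) and -0.06 ± 0.24 (-0.58 to 0.45). The groups overlapped for all 5, and limma's adjusted p was 1 for each. These estimates leave out the pairing by replicate number at 16 h. Within every pair of the same number, Grin2a and Grin2b were higher with erinacine S, while Grin1, Grin2d and Grin3a went both ways. The share of all genes that kept the same sign in every pair was not computed, so no effect is read from these signs. No member was called at 16 h with the replicate number as a block.

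At 48 h 0 of 5 members were called, against 0.134 percent of all genes, and again none had an unadjusted p under 0.05, against 8.96 percent of all genes. Grin2b had the smallest p of the members: its erinacine S libraries at 48.1, 32.8 and 26.2 TPM overlapped the DMSO libraries at 32.8, 24.6 and 26.1. The difference was 0.32 ± 0.20 (limma, adjusted p = 0.682, 95% interval -0.12 to 0.75), and 0.083 without replicate 1 of erinacine S (adjusted p = 0.955). Grin2d differed by 0.41 ± 0.34 (-0.33 to 1.16) and Grin3a by 0.20 ± 0.24 (-0.32 to 0.72), in both cases with 1 erinacine S library, replicate 1, above all DMSO libraries. Grin1 differed by -0.05 ± 0.15 (-0.38 to 0.28) and Grin2a by -0.11 ± 0.18 (-0.50 to 0.28). Without that library the difference was 0.0184 for Grin2d (limma, adjusted p = 0.995), -0.15 for Grin3a (0.867), -0.21 for Grin1 (0.738) and -0.11 for Grin2a (0.948). Markers of other cells also differed at 48 h: all 5 tested microglial markers were lower with erinacine S (median -1.30, 1 called; 3 of 6 called without replicate 1). All 10 markers of radial glia and dividing cells had negative differences (median -0.48, none called), and their median was 0.001 without that replicate. Their part in the subunits' values was not tested. The intervals above leave room for changes of moderate size. On simulated data for this comparison, limma recovered 45 of 100 genes changed by 0.5 on the log2 scale and 90 of 100 changed by 1. Those genes were drawn at random from all tested genes, with independent noise in each library and no library that stood apart. The rates therefore do not give the recovery of the members, of which Grin2d had a standard error of 0.34.

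The rise over time was also not shown to differ between the arms. In the treatment by time interaction 0 of 5 members were called, against 0 percent of all genes. The interaction was -0.28 ± 0.25 for Grin2a, 0.46 ± 0.49 for Grin2d, 0.26 ± 0.34 for Grin3a, 0.09 ± 0.29 for Grin2b and -0.07 ± 0.21 for Grin1, with a limma adjusted p of 1 for each. Without replicate 1 of erinacine S at 48 h the values were -0.28, 0.0626, -0.0829, -0.14 and -0.24 in the same order, again with none called. None of the 5 members had an unadjusted p under 0.05 here, against 2.77 percent of all genes.

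The balance between GluN2 subunits is a standard index of receptor maturity, because the share of GluN2A grows as cortical synapses mature. Grin2b made up most of the GluN2 transcripts in every library, at 62.0 to 78.8 percent of the summed TPM of Grin2a to Grin2d. The share of Grin2a was 4.96 ± 2.02 percent in DMSO at 16 h and 11.9 ± 1.04 at 48 h, and 5.65 ± 2.05 and 9.09 ± 2.43 percent in erinacine S (SD, n = 3; 10.5 percent at 48 h without replicate 1). In DMSO the times did not overlap, whereas in erinacine S replicate 1 at 48 h (6.33 percent) lay below replicate 1 at 16 h (8.00 percent). Grin2d went from 23.4 ± 9.62 to 9.98 ± 1.97 percent in DMSO and from 19.8 ± 7.61 to 11.6 ± 3.32 percent in erinacine S (9.71 percent without replicate 1 at 48 h). At 16 h replicate 1 was low in both arms (12.3 and 11.2 percent) against 22.5 to 29.7 percent in the other libraries. For this share the times overlapped in erinacine S through replicate 1 at 48 h, at 15.4 percent. In DMSO they nearly touched, with up to 12.2 percent at 48 h. In TPM Grin2d was not called over time in either arm, while Grin2a and Grin2b, which enter the same sum, rose in both.

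**Figure D3:**
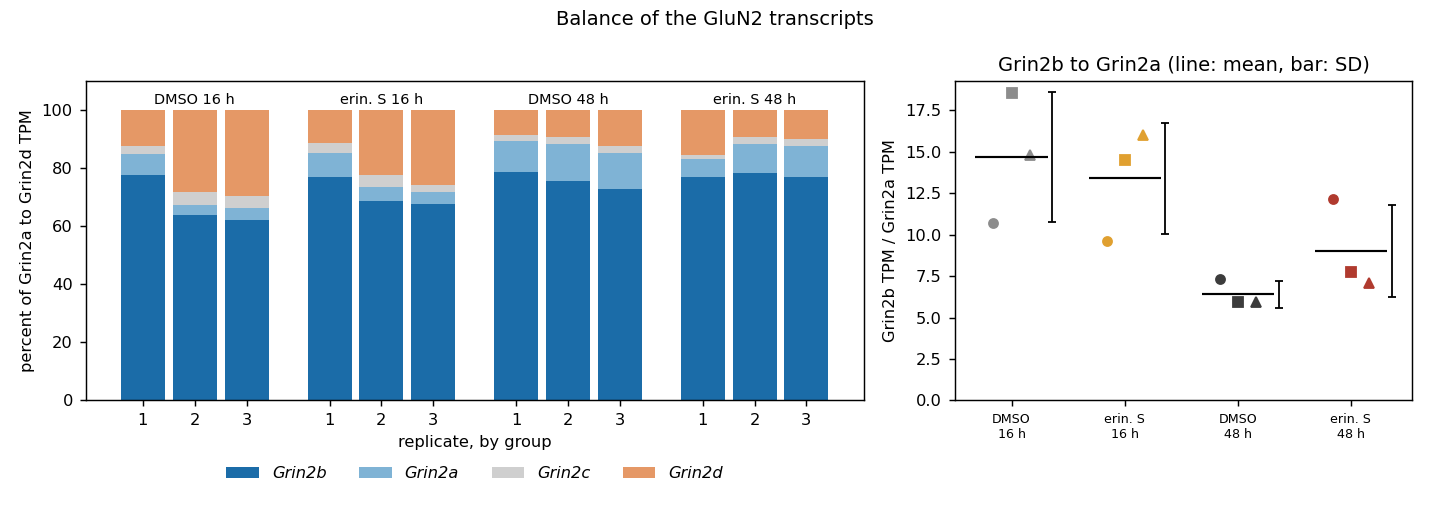
Left, the share of each Grin2 gene in the summed TPM of Grin2a to Grin2d (percent) in each library; right, Grin2b TPM divided by Grin2a TPM, with points for libraries (shape: replicate number), lines for group means and bars for SD (n = 3). Grin2b is the largest share in all 12 libraries, and the ratio is between 9.64 and 18.6 at 16 h and between 5.92 and 12.2 at 48 h.

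Grin2b TPM exceeded Grin2a TPM 10.7, 18.6 and 14.8 times in the DMSO libraries at 16 h and 7.34, 5.95 and 5.92 times at 48 h. In erinacine S the ratio was 9.64, 14.5 and 16.0 at 16 h and 12.2, 7.77 and 7.08 at 48 h. The DMSO ratio was lower in every 48 h library than in every 16 h library, and the erinacine S ratio overlapped between the times. The test used log2 of (Grin2b + 1)/(Grin2a + 1), for which the DMSO difference was -0.38 (exact two-sided permutation test, p = 0.1, the smallest that 3 against 3 allows). In erinacine S the difference was -0.01 (exact permutation p = 1), and over both arms it was -0.19 (exact permutation p = 0.22). Without replicate 1 of erinacine S at 48 h these were -0.24 (exact permutation p = 0.3) and -0.31 (exact permutation p = 0.015), the latter past the threshold. This scale shrinks the low Grin2a levels of 16 h most. With 0.1 added in place of 1 the difference over both arms was -0.77 (exact permutation p = 0.01), and with 5 added it turned to 0.38 (exact permutation p = 0.005, the smallest possible), so its direction depends on the pseudocount.

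For erinacine S against DMSO the exact permutation test cannot go below p = 0.1 at a single time, with 3 libraries against 3. The difference was 0.05 at 16 h (exact permutation p = 0.7), 0.42 at 48 h (exact permutation p = 0.2) and 0.24 over both times (exact permutation p = 0.12). Without replicate 1 of erinacine S at 48 h the last 2 were 0.19 (exact permutation p = 0.3) and 0.12 (exact permutation p = 0.23). Grin1 TPM divided by the summed Grin2 TPM, a measure of obligatory against modulatory transcripts, was 2.06, 2.33 and 2.52 in DMSO at 48 h and 1.62, 1.80 and 2.02 in erinacine S. The erinacine S libraries all lay below the DMSO libraries. For the TPM of single genes at 48 h, the groups did not overlap in either direction for 19.3 percent of all genes, and in this direction for 8.74 percent. A share over ratios of genes was not computed. No test was run on this ratio, which was chosen after its values were seen. At 16 h it was 2.48 to 2.75 in DMSO and 2.07 to 2.72 in erinacine S, with overlap.

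Replicate 1 of erinacine S at 48 h held the highest Grin1, Grin2b, Grin2d and Grin3a of all libraries and the highest sum of inhibitory neuron markers. Its 8 inhibitory markers summed to 1814 TPM, while the other libraries lay between 771.7 and 1272. Sst alone ranged from 191.0 to 1019 TPM over all libraries. Between erinacine S and DMSO at 48 h, 3 of the 8 markers had positive and 5 negative differences, and none was called. Its astrocyte markers summed to 72.99 TPM against 144.3 to 169.7 in the other 48 h libraries, and its microglial markers to 1.325 against 8.011 to 24.16. Grin2d measured 9.64 TPM there and at most 5.44 elsewhere, and Grin3a 16.5 and at most 9.71. The part of cell makeup in these levels was not tested.

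**Figure D4:**
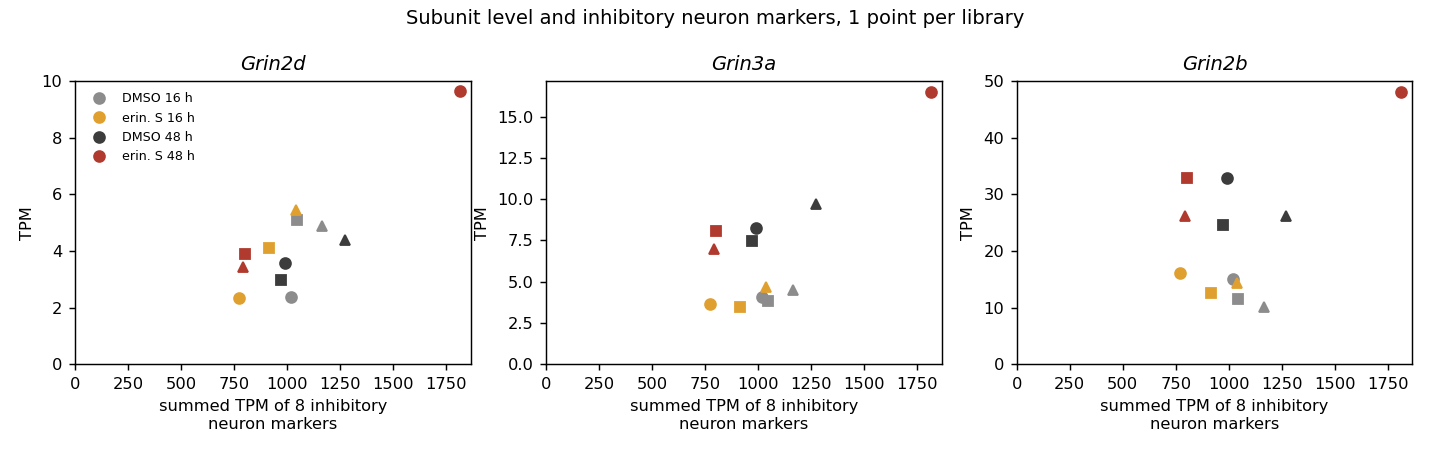
TPM of Grin2d, Grin3a and Grin2b (vertical axes) against the summed TPM of 8 inhibitory neuron markers (Gad1, Gad2, Slc32a1, Dlx1, Dlx2, Lhx6, Sst, Npy; horizontal axes), 1 point per library, coloured by group with shape for the replicate number and "erin. S" for erinacine S. Replicate 1 of erinacine S at 48 h, at 1814 TPM, lies to the right of and above all other libraries in the 3 panels.

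Across the 12 libraries, Grin1, Grin2a, Grin2b and Grin3a varied together, with Pearson r of log2(TPM + 1) between 0.83 (Grin2a and Grin3a) and 0.947 (Grin1 and Grin2b). Grin2d stood apart, with r between -0.022 and 0.513 to the other 4. These values describe 12 libraries that share the 2 culture times. Among 10594 named genes with a mean of at least 5 TPM, the patterns most like Grin1 were those of App (r = 0.994), Tbc1d16 (0.991) and Mgat3 (0.991), and those most like Grin2a were Lmo7 (0.996), Nell2 (0.991) and Trnp1 (0.989). For Grin2b they were Pcdha4 (0.991), Adam22 (0.988) and Ids (0.987), and for Grin3a Rragb (0.986), Pcsk2 (0.986) and Ablim3 (0.985). Grin2d was most like Cacng3 (0.948), Zbtb41 (0.944) and Nrxn3 (0.943). Its level was 9.64 TPM in replicate 1 of erinacine S at 48 h and at most 5.44 in the other libraries. That library thus weighs heavily in the r values of Grin2d, and r without it was not computed.

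Genes that act with the receptor were described in 4 lists holding 76 entries. Of 19 scaffolds and signalling partners, 10 rose and 1 fell from 16 h to 48 h in DMSO, and 13 rose and 2 fell in erinacine S (10 and 2 without replicate 1 at 48 h), all by limma. Over all genes 16.1 percent were called higher and 16.6 percent lower in DMSO, and 15.1 and 15.5 percent in erinacine S. Without that replicate the shares in erinacine S were 12.1 percent higher and 13.6 percent lower. The median log2 change of the 19 genes was 0.47 in DMSO and 0.49 in erinacine S, against -0.03 over all genes in both. Rasgrf2, a calcium-activated exchange factor for Ras that couples to the receptor, measured 2.02, 1.83 and 2.08 TPM in DMSO at 16 h and 14.7, 14.6 and 13.1 at 48 h, without overlap. It rose by 2.34 ± 0.14 (limma, adjusted p = 2.46e-06) and, in erinacine S, by 2.47 ± 0.14. Camk2b, a subunit of the calcium/calmodulin kinase that docks on GluN2B, rose from a mean of 285.8 to 563.3 TPM in DMSO (0.98 ± 0.12) and from 273.1 to 480.8 in erinacine S (0.82 ± 0.12). Dlg1, which encodes the scaffold SAP97, fell from 39.1 to 24.0 TPM in DMSO (-0.68 ± 0.10). Nos1, the neuronal nitric oxide synthase held near the receptor by PSD-95, rose from 5.72 to 10.8 TPM in erinacine S (0.80 ± 0.12).

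Of 15 tested calcium signalling genes below the receptor, 10 rose in DMSO and 9 in erinacine S (7 without replicate 1), and none was called lower. Over all genes 16.1 percent were called higher in DMSO and 15.1 percent in erinacine S (12.1 percent without replicate 1). The medians of the list were 0.36 and 0.30, against -0.03 over all genes in both. Calm3, a calmodulin gene, went from 559.3 to 894.2 TPM in DMSO (0.68 ± 0.07, limma adjusted p = 5.85e-05) and from 578.6 to 953.6 in erinacine S (0.72 ± 0.07). Ppp3ca, the catalytic subunit of calcineurin, rose by 0.48 ± 0.08 and 0.58 ± 0.08. Camk4, a nuclear calmodulin-dependent kinase, rose by 0.70 ± 0.12 in erinacine S.

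Of 15 tested genes that supply or clear glutamate and the co-agonists, 3 rose and 6 fell in DMSO (median -0.12), and 2 rose and 4 fell in erinacine S (median -0.04; 3 and 5 without replicate 1). The background was 16.1 percent called higher and 16.6 percent lower in DMSO, and 15.1 and 15.5 percent in erinacine S. In the fit with all libraries the counts of rises were near it. Without replicate 1 the background in erinacine S was 12.1 percent higher and 13.6 percent lower. Enzymes of serine and glycine synthesis were among those that fell: Shmt2, which makes glycine from serine in mitochondria, by 0.81 ± 0.09 on the log2 scale in DMSO and Psph, the last step to L-serine, by 0.85 ± 0.11. In erinacine S the same 2 genes fell by 0.82 ± 0.09 and 0.84 ± 0.11. Slc1a1, the neuronal glutamate transporter EAAC1, rose from 28.5 to 47.1 TPM in DMSO (0.71 ± 0.10) and from 32.2 to 51.2 in erinacine S (0.66 ± 0.10).

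Of 22 transcription and chromatin factors that have been tied to Grin genes, 3 rose and 7 fell in DMSO (median -0.11), and 3 rose and 4 fell in erinacine S (median -0.13; 3 and 6 without replicate 1). In the fit with all libraries, both counts in erinacine S and the count of rises in DMSO were near the background of that fit. Without replicate 1 the background in erinacine S was 12.1 percent higher and 13.6 percent lower. The count of 6 falls lay above the latter. Mef2c, an activity-regulated neuronal transcription factor, rose from 148.5 to 262.7 TPM in DMSO (0.83 ± 0.13) and from 163.8 to 300.2 in erinacine S (0.85 ± 0.13). Dnmt3a, a de novo DNA methyltransferase, rose by 0.78 ± 0.12 and 0.72 ± 0.12. Tspyl2, a nucleosome assembly factor, fell from 121.5 to 91.9 TPM in DMSO (-0.40 ± 0.07), and Sp3, a GC-box binding factor, fell from 74.9 to 57.6 TPM in erinacine S (-0.37 ± 0.08).

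**Figure D5:**
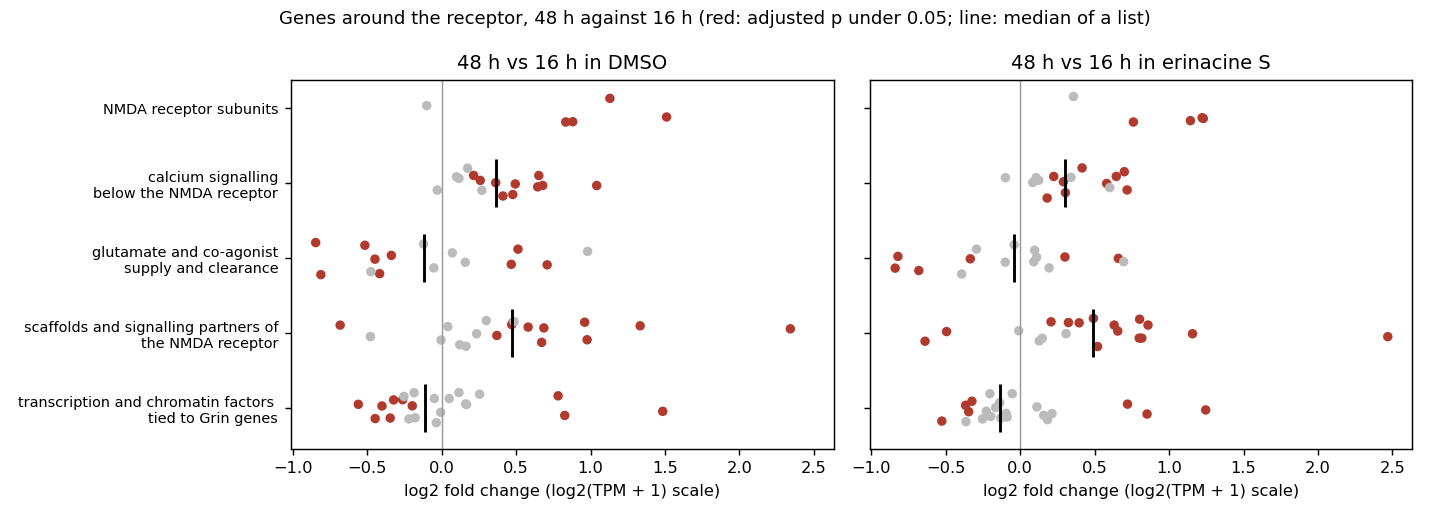
Log2 fold change from 16 h to 48 h (limma, log2(TPM + 1) scale) of the 5 tested subunit genes and of the tested genes of the 4 lists, 1 point per gene, in DMSO (left) and erinacine S (right); red points have an adjusted p under 0.05, black lines are list medians, and the vertical scatter within a row has no meaning. Most red points of the scaffold and calcium lists lie to the right of 0, and those of the other lists lie on both sides.

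With erinacine S against DMSO, no gene of the 4 lists was called at 16 h or 48 h. The smallest p of each list at 16 h belonged to Kif17, a motor that carries GluN2B (-0.29 ± 0.19), Srr, which makes D-serine (0.14 ± 0.07), Eed (-0.12 ± 0.11) and Rcan2 (-0.26 ± 0.28), all with a limma adjusted p of 1. At 48 h they were Camk2b (-0.23 ± 0.12, limma adjusted p = 0.588), Slc1a5, a neutral amino acid transporter (0.40 ± 0.13, 0.332), Tspyl2 (0.20 ± 0.07, 0.353) and Rcan2, an inhibitor of calcineurin (-0.70 ± 0.28, 0.495). Rcan2 measured 65.9, 61.0 and 67.7 TPM in DMSO and 69.8, 28.3 and 30.9 in erinacine S, so that replicate 1 alone reached the DMSO level. Without that library Rcan2 was called lower (-1.11 ± 0.17, limma adjusted p = 0.0167), the only gene of the 4 lists to be called in either treatment comparison of that fit, against 0.684 percent of all genes called lower at 48 h.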

How the data were processed

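RNA of 12 libraries was measured, 3 in each of 4 groups taken from the sample titles. The library kit keeps strand, per the labels' protocols, and the authors deposited 1 table of TPM per gene. The submitters' processing notes name bcl2fastq 2.20, Trimmomatic 0.36, FastQC, HISAT2, SAMtools, StringTie 2.1.3 and GRCm38. For their order, the annotation release and the strand setting, no statement was found in the labels or file headers. The deposited TPM hold 0.0001 in place of 0, which was set to 0.

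The test was limma 3.58.1 (R 4.3.3) on log2(TPM + 1) for the 15623 genes with a mean of at least 1 TPM (1 mean per group over all 12 libraries, eBayes with a trend, two-sided, Benjamini-Hochberg over all genes tested, threshold 0.05). The code was tested on simulated data. The Grin2b to Grin2a balance was tested by exact permutation over libraries, within strata where both arms or times were used. Named genes were the 7 members, up to 3 called genes of each list by smallest p (or the 1 with the smallest p where none was called), and the 3 genes most like each member by Pearson r. A gene so named and a sequence are not reported here. The members and lists were chosen with earlier results of these data known. Alternatives were pseudocounts of 0.1 and 5, no minimum or one of 5 TPM, other scalings, library weights, robust eBayes, only the libraries compared, replicate blocks and leaving out each library.

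Replicate numbers come from the titles. Among 16 h libraries with the same number, deviations from the group means correlated at 0.48, 0.185 and 0.51, all over 0.1. Those with unlike numbers correlated at -0.448 to 0.109, so the numbers were taken to pair these samples. The main fit leaves this pairing out, and the fit with the replicate number as a block uses it. At 48 h libraries with the same number correlated at -0.022, 0.107 and -0.192, and between the times at -0.182 to 0.027, so there they share only a number.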

Additional observations from a re-analysis of the deposited data

How the results depend on the processing

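No member was called in a treatment comparison or the interaction under any alternative run. From 16 h to 48 h Grin1 and Grin2b passed in all 24 alternatives in both arms, and Grin2a in all 23 that tested it, since a minimum mean of 5 TPM left it out with Grin2d. Grin3a passed in erinacine S in all 24 and in DMSO in 23 of 24, the exception being the fit without DMSO 48 h replicate 3 (0.79, limma adjusted p = 0.057). Grin2c and Grin3b, which enter only without the minimum, were not called. With the replicate number as a block, no member's call changed (Grin2b in DMSO 1.13, limma adjusted p = 0.000196, and Grin2b at 48 h 0.32, adjusted p = 0.453), and the ratio at 16 h had an exact permutation p of 1 within pairs.

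The Grin2b to Grin2a log2 ratio moved with the pseudocount, as its construction implies. With 0.1 added the 16 h treatment difference was -0.0928 and the time difference over both arms -0.77. With 5 added the time differences were 0.27 in DMSO, 0.50 in erinacine S and 0.38 over both arms. Leaving out each library in turn gave -0.0333 to 0.13 for the treatment difference at 16 h, -0.24 to 0.15 for the time difference in erinacine S and -0.31 to -0.12 for that over both arms. Over both arms the time difference passed without erinacine S 48 h replicate 1 (-0.31, exact permutation p = 0.015).

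Directions of differences that were never called also turned. With library weights the 16 h treatment differences were 0.32 for Grin2d, -0.15 for Grin1, -0.0215 for Grin2b and -0.12 for Grin2a, and that of Grin3a at 48 h was -0.0595. The time difference of Grin2d was then 0.13 in DMSO and -0.0909 in erinacine S, and the interactions -0.23 for Grin2d and 0.0676 for Grin2a. Leaving out each library in turn gave treatment differences at 16 h of -0.32 to 0.22 for Grin2d, -0.11 to 0.10 for Grin1 and -0.17 to 0.0066 for Grin3a, and at 48 h of -0.21 to 0.0647 for Grin1 and -0.15 to 0.42 for Grin3a. Time differences of Grin2d spanned -0.38 to 0.0489 in DMSO and -0.0383 to 0.59 in erinacine S, and interactions -0.14 to 0.29 for Grin2b, -0.24 to 0.0608 for Grin1 and -0.0829 to 0.48 for Grin3a. The cause of these turns was not tested.

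Over all genes the 48 h treatment calls went from 21 to 1599 with library weights, 114 without erinacine S 48 h replicate 1, 11 with only the libraries compared, 13 with the replicate block and 9 to 13 without any 1 of the other 48 h libraries or erinacine S 16 h replicate 2 or 3. Calls over time in erinacine S went from 4783 to 9338 with library weights and 3105 without erinacine S 16 h replicate 2. Interaction calls went from 0 to 14 with library weights, to 1 with 0.1 added and to 1 with the block within each time, and 16 h treatment calls from 0 to 2 without the minimum. Without erinacine S 48 h replicate 1 the calcium list had 1 call at 48 h in place of 0. TPM keep no depth, so counting error cannot be given.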
